A study of Mus musculus with 6 samples.

Results

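Ahcyl2 and 7 other genes of the methionine cycle were followed in wild-type mouse splenic CD3+ T cells, primary cells activated for 24 h with antibodies to CD3 and CD28. The 8 genes, out of 52550 in the count table, were found by matching Ensembl identifiers to symbols, and all 8 passed the filter on low counts that left 14786 genes for testing. Ahcyl2 was chosen by its own difference between the groups compared below, so its values are given as a description with no test, while the other 7 genes were taken as its pathway and were tested. One group of 3 samples was activated only (TCR alone). The other group of 3 samples received the same activation together with, per the labels, DMGV (dimethylguanidino valeric acid) at 100 ng/ml (TCR+DMGV). DMGV is a product of the breakdown of dimethylarginines, the methylated forms of arginine that protein turnover releases. The study's text and supplementary legend for this experiment instead name the added compound LNY1, and the legend gives the same dose and time. The paper describes LNY1 as an inhibitory factor purified from fibroblast medium and equates it with asymmetric and symmetric dimethylarginine. The label names are used here, and which compound the cells received cannot be told from these sources. The cells of 1 sample are a mixture of all splenic CD3+ T cells, and the age and sex of the animals behind each library are not given in the labels.

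The methionine cycle carries the methyl groups that cells put on DNA, RNA, histones and other proteins. Methionine is turned into S-adenosylmethionine by the enzyme whose catalytic subunit is Mat2a and whose regulatory subunit is Mat2b, and methyltransferases then use S-adenosylmethionine and release S-adenosylhomocysteine. Ahcy splits S-adenosylhomocysteine into adenosine and homocysteine, Mtr returns homocysteine to methionine with cobalamin as cofactor, Mtrr keeps Mtr active, and Mtap recovers the sulphur-carrying product of polyamine synthesis. Ahcyl1, also called IRBIT, and Ahcyl2 resemble Ahcy in sequence but are not known to act as the hydrolase. Ahcyl1 binds the inositol trisphosphate receptor and several ion transporters, and Ahcyl2 can bind Ahcyl1. Activated T cells raise methionine uptake and methylation as they prepare to divide.

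Ahcyl2 lies on the plus strand of chromosome 6 (chr6:29768011-29912310, GENCODE M21 on GRCm38), and 23 transcripts are annotated for it. Its 4 main coding transcripts begin at 3 separate start sites, each with its own first exon, and then run through mostly the same downstream exons. The coding part of the first exon differs with the start site, so the start site sets the N-terminal end of the protein. The sequences below show the last 57 coding bases of each first exon, 5′ to 3′ on the plus strand, with a start codon in capitals where the printed stretch contains it. They lie at chr6:29768850-29768906 for Ahcyl2-202, at chr6:29854083-29854139 for Ahcyl2-201 and at chr6:29859723-29859779 for Ahcyl2-203.
Ahcyl2-202: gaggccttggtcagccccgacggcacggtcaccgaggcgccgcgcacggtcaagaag
Ahcyl2-201: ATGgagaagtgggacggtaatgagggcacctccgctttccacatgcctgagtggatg
Ahcyl2-203: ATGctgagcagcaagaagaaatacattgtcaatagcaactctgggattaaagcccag
Ahcyl2-202 has 369 coding bases (123 codons) in its first exon, whereas Ahcyl2-201 and Ahcyl2-203 each have 57 (19 codons). The stretches of Ahcyl2-201 and Ahcyl2-203 had the same base at 16 of 57 positions.

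Ahcyl2-204 starts at the same site as Ahcyl2-202 and uses a second exon that begins 3 bases earlier. Both junctions of exon 1 with exon 2 are printed with 15 bases of exon 1, the bases found only in the longer form in capitals, and 15 bases of the common part of exon 2. The first-exon bases are chr6:29768892-29768906, and the second-exon bases are chr6:29863143-29863157 for Ahcyl2-202 and chr6:29863140-29863157 for Ahcyl2-204.
Ahcyl2-202: cgcacggtcaagaagattcagtttgctgac
Ahcyl2-204: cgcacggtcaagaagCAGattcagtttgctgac
A further transcript, Ahcyl2-215, is annotated as a retained intron with no coding part. It begins inside the gene, and its first 279 bases, chr6:29870289-29870567, are in no other annotated Ahcyl2 transcript.

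**Figure D1:**
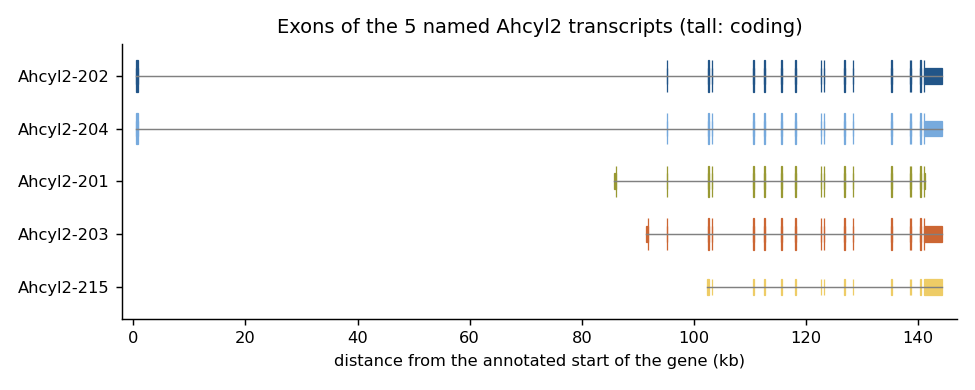
Exon map of the 5 Ahcyl2 transcripts that held at least 10% of the gene's counts in any sample; the x axis is the distance in kb from the annotated start of the gene, and tall boxes mark coding parts. The 5 transcripts differ mainly at their 5′ ends, though not all start at separate sites, and share most exons downstream. Ahcyl2-201 ends after the first 176 bases of the last exon, which the other 4 carry at its long annotated length.

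The 6 libraries held 37758725 to 43718867 gene counts. All 7 T cell markers of the list examined (the CD3 chains, Cd2, Cd5 and Lck) were present, each with a median above 1 CPM (counts per 1000000, TMM-scaled), and had summed levels of 2070 to 2370 CPM in TCR alone and 2260 to 2520 CPM in TCR+DMGV. B cell markers summed to 7.95 to 11.1 CPM and macrophage and monocyte markers to 8.67 to 11.6 CPM. NK cell markers summed to 54.1 to 73.6 CPM, and the groups overlapped in each of these lists. A median above 1 CPM was reached by 2 of 6, 2 of 6 and 1 of 4 of these markers, in the same order. All 4 neutrophil markers were at 0, dendritic cell markers reached 1.09 CPM with Siglech and Clec9a at 0, and erythroid markers reached 3.97 CPM. The 4 platelet markers, none with a median above 1 CPM, summed to 0.843 to 1.11 CPM in TCR alone and 1.19 to 1.31 CPM in TCR+DMGV, without overlap; their part in the results below was not tested. TCR alone replicate 3 and TCR+DMGV replicate 1 stood apart from the other 4 libraries on the first principal component (-42.1 and -42.9 against 10.5 to 34.9, with 32.2% of the variance), so results that rest on them are also given without both.

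Ahcyl2 was about doubled in the T cells labelled as treated with DMGV. The 3 TCR alone libraries had 1576, 1759 and 1881 Ahcyl2 counts, and the 3 TCR+DMGV libraries had 3729, 3492 and 3336. Scaled to depth, these were 41.5, 43.1 and 45.4 CPM in TCR alone and 83.8, 81.1 and 84.2 CPM in TCR+DMGV. Every TCR+DMGV library lay above every TCR alone library, and the spread within each group was small beside the distance between them (43.3 ± 1.99 and 83.0 ± 1.68 CPM, SD, n = 3 each). The difference of Ahcyl2 was 0.94 on the log2 scale, 1.92-fold, and 0.97 without TCR alone replicate 3 and TCR+DMGV replicate 1. Of all 14786 genes tested, 2 (0.0135%) passed the adjusted threshold of 0.05, and 8.86% had groups that did not overlap in CPM. As bulk RNA was measured, a changed number of cells that carry Ahcyl2 RNA and a changed amount per cell cannot be told apart.

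**Figure D2:**
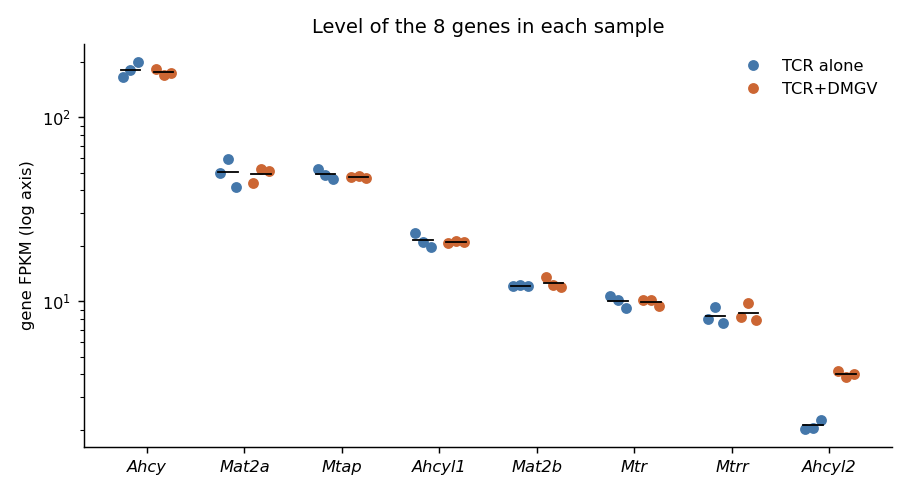
Level of each of the 8 genes in every sample, as deposited gene FPKM on a log axis; points are samples, bars are group means, blue is TCR alone and orange is TCR+DMGV. Only Ahcyl2 shows separate groups among these 8 genes, at 2.03 to 2.26 FPKM against 3.88 to 4.15 FPKM.

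The rise of the Ahcyl2 total came with an uneven rise of its transcripts. Ahcyl2-202, Ahcyl2-203, Ahcyl2-204 and Ahcyl2-215 carry the last exon of the gene at its long annotated length. These 4 transcripts held 74.6%, 64.2% and 62.9% of its counts in TCR alone, against 93.2%, 92.2% and 91.8% in TCR+DMGV. In CPM these 4 together were 2.64-fold higher in TCR+DMGV, while the 19 other transcripts stood at 0.443 of their TCR alone mean. Neither set overlapped between groups. In TCR alone, Ahcyl2-201 made up 9.85 of the mean 14.3 CPM of those 19. It ends after the first 176 bases of that same last exon. Among the long forms, Ahcyl2-203 from the downstream start site and Ahcyl2-215 from inside the gene together took 37.8%, 23.1% and 19.7% of counts in TCR alone, against 79.9%, 76.5% and 57.0% in TCR+DMGV. Their sum went from 11.5 ± 3.62 to 59.0 ± 9.85 CPM (SD, n = 3 each), a larger difference than that of the whole gene.

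Ahcyl2-203 and Ahcyl2-215 divided that rise differently from library to library. Ahcyl2-203 was at 4.45, 5.24 and 7.95 CPM in TCR alone and at 15.5, 14.4 and 38.8 CPM in TCR+DMGV. Ahcyl2-215 was at 11.2, 4.70 and 1.01 CPM in TCR alone and at 51.4, 47.6 and 9.16 CPM in TCR+DMGV. The groups of Ahcyl2-203 did not overlap in CPM, whereas TCR+DMGV replicate 3 put Ahcyl2-215 below TCR alone replicate 1. That replicate had instead the highest Ahcyl2-203 and Ahcyl2-204, and its Ahcyl2 total was like those of the other TCR+DMGV libraries. Transcripts annotated as protein-coding held 36.9%, 39.1% and 87.4% of counts in TCR+DMGV, and 65.7%, 84.2% and 92.1% in TCR alone.

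Transcripts from the upstream start site, which carry the long N-terminal end, did not share in the doubling. Ahcyl2-202 stood at 10.7, 12.0 and 12.2 CPM in TCR alone and at 8.76, 9.17 and 10.2 CPM in TCR+DMGV. Its share of the gene's counts was 26.8% ± 1.05 in TCR alone and 11.3% ± 0.856 in TCR+DMGV (SD, n = 3 each), with no overlap. Ahcyl2-204, its partner with the 3 extra bases, was at 4.61, 5.73 and 7.47 CPM in TCR alone and at 2.38, 3.53 and 19.1 CPM in TCR+DMGV. Both transcripts together gave 17.5 ± 2.19 and 17.7 ± 10.1 CPM, nearly equal means with a spread in TCR+DMGV that rests on replicate 3.

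Ahcyl2-201, from the middle start site and with a last exon of 176 bases, went the other way from the gene. It was at 5.87, 11.3 and 12.3 CPM in TCR alone and at 2.47, 3.16 and 3.99 CPM in TCR+DMGV. Its share was 14.1%, 26.3% and 27.2% in TCR alone and 2.95%, 3.89% and 4.74% in TCR+DMGV, so the groups did not overlap in level or share. The 18 Ahcyl2 transcripts under the 10% limit held 9.55% to 11.3% of counts in TCR alone, against 3.48% to 3.95% in TCR+DMGV. Part of that fall in share comes from the higher total: their summed level was 4.43 ± 0.29 and 3.11 ± 0.163 CPM (SD, n = 3 each), 0.703-fold. Without TCR alone replicate 3 and TCR+DMGV replicate 1 the share differences were -15.0 percentage points for Ahcyl2-202, -15.9 for Ahcyl2-201, 20.5 for Ahcyl2-203 and 15.8 for Ahcyl2-215. With all 6 libraries they were -15.5, -18.7, 14.0 and 30.3, in the same order. Without TCR+DMGV replicate 3 alone they were 4.7 for Ahcyl2-203 and 46.7 for Ahcyl2-215, so the division between these transcripts rests on that library. The share of Ahcyl2-204 differed by -3.67 percentage points with all 6 libraries. In the libraries left without TCR alone replicate 3 and TCR+DMGV replicate 1, it held 11.1% and 13.3% in TCR alone, against 4.35% and 22.6% in TCR+DMGV. These TCR+DMGV values lay on both sides of TCR alone, so Ahcyl2-204 had no settled direction.

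These splits are estimates that the counting program made from mostly shared sequence. The bases that occur in no other annotated Ahcyl2 transcript number 0 for Ahcyl2-202, 1 for Ahcyl2-204, 7 for Ahcyl2-201, 279 for Ahcyl2-215 and 306 for Ahcyl2-203. At the far end, Ahcyl2 overlaps the antisense gene 4930528J11Rik, which had 17 to 53 counts per library. The strand setting of the counting is not given in the sources used here, and those counts are small beside those of Ahcyl2.

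**Figure D3:**
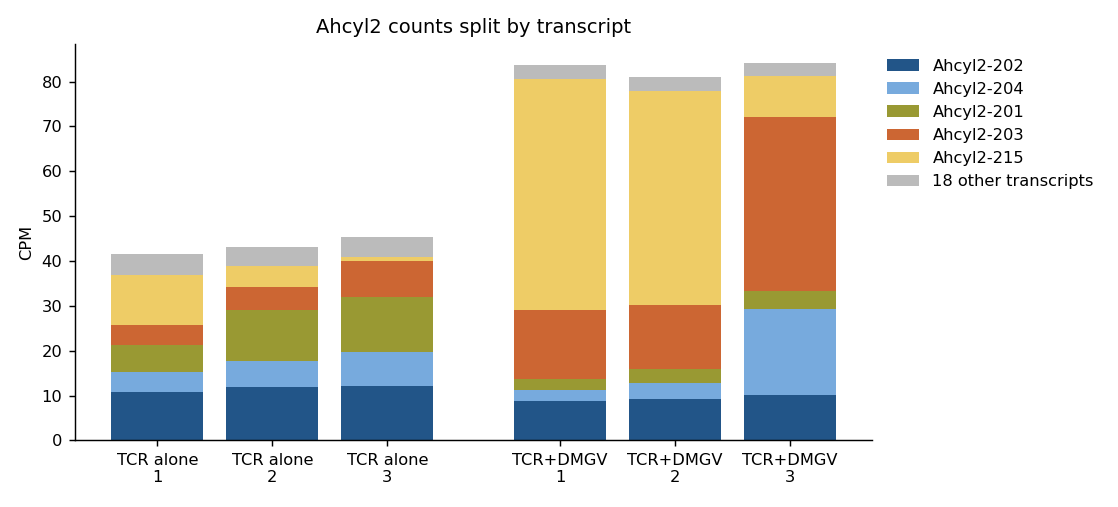
Ahcyl2 CPM in each sample, stacked by transcript; each bar is 1 sample and its height is the gene's total. The totals sit at 41.5 to 45.4 in TCR alone and 81.1 to 84.2 in TCR+DMGV, with the added height in Ahcyl2-203 and Ahcyl2-215 and, in TCR+DMGV replicate 3, also in Ahcyl2-204.

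By the deposited gene FPKM, Ahcyl2 was the lowest of the 8 genes in both groups. FPKM, fragments scaled to exon length and library size, gave Ahcyl2 2.11 ± 0.129 in TCR alone and 4.01 ± 0.134 in TCR+DMGV (SD, n = 3 each). Over the 6 samples the order of mean FPKM was Ahcy (178), Mat2a (49.8), Mtap (48.2), Ahcyl1 (21.2), Mat2b (12.4), Mtr (9.95), Mtrr (8.46) and Ahcyl2 (3.06). Mat2a and Mtap overlapped in their sample ranges, as did Mtr and Mtrr, and the other neighbours in this order did not. The low end of the order depends on the length used. With the deposited FPKM summed over each gene's transcripts, Ahcyl2 was at 13.2 ± 1.27 in TCR alone, with samples overlapping those of Mtrr (13.0 to 14.6) and Mtr (9.91 to 12.1). On that scale it was at 18.2 ± 0.641 in TCR+DMGV (SD, n = 3 each), where every library lay above Mtrr (12.6 to 15.5) and Mtr (10.1 to 11.5).

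Set against its nearest relative, Ahcyl2 was at 8.63%, 9.71% and 11.5% of the Ahcyl1 FPKM in TCR alone and at 20.2%, 18.2% and 19.2% in TCR+DMGV. The groups did not overlap in this ratio. Its size depends on the length used: the deposited gene FPKM divides by all exons merged, 18255 bases for Ahcyl2, and the sum of the deposited transcript FPKM gave means of 30.1% and 43.9%. Ahcyl1 in turn was at 12.0% of the Ahcy FPKM in both groups (± 2.17 and ± 0.649, SD, n = 3 each).

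The other 7 genes gave no difference that passed the test. Their log2 differences lay between -0.03 and 0.08, none passed the adjusted threshold and none had an unadjusted p under 0.05 (0 of 7; edgeR's quasi-likelihood test, adjusted p = 0.999 for each), and the same was counted by DESeq2 and by limma. All 7 overlapped between groups in CPM. The 95% intervals show what size of change the data allow, and for each of the 7 genes they stayed within 0.765-fold and 1.31-fold.

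Ahcy, the hydrolase itself, was at 516, 578 and 611 CPM in TCR alone and at 562, 542 and 563 CPM in TCR+DMGV. The TCR+DMGV libraries lay inside the TCR alone range, with a log2 difference of -0.03 ± 0.08 (SE) and an interval of 0.857-fold to 1.11-fold. Ahcy (chr2:155059310-155074497, minus strand) shares 68.7% of its 50-base windows with 4 other annotated genes, which together had at most 1476 counts in a library against at least 19590 for Ahcy. Its relative Ahcyl1 (chr3:107663118-107696560, minus strand) was at 175, 162 and 145 CPM in TCR alone and at 152, 163 and 161 CPM in TCR+DMGV, with a log2 difference of -0.02 ± 0.09 (SE). Neither Ahcyl1 nor Ahcyl2 shares a 50-base window with another gene's annotated transcripts, so the counts of these relatives can be told apart.

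Mat2a (chr6:72432799-72439558, minus strand), the catalytic subunit that makes S-adenosylmethionine, had the largest standard error of the 7 genes. It was at 249, 307 and 206 CPM in TCR alone and at 218, 270 and 262 CPM in TCR+DMGV, a log2 difference of -0.02 ± 0.15 (SE) with an interval of 0.765-fold to 1.27-fold. Within both groups the lowest Mat2a was in the library that stood apart, replicate 3 of TCR alone and replicate 1 of TCR+DMGV. Mat2b (chr11:40679314-40695203, minus strand), the regulatory subunit, was steadier at 67.3, 70.7 and 66.4 CPM in TCR alone and at 74.7, 70.6 and 68.2 CPM in TCR+DMGV, a log2 difference of 0.06 ± 0.08 (SE).

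Mtr (chr13:12182712-12258113, minus strand), methionine synthase, was at 102, 100.0 and 85.5 CPM in TCR alone and at 95.1, 98.0 and 92.2 CPM in TCR+DMGV. Mtrr (chr13:68560780-68582149, minus strand), which reactivates it, was at 46.3, 55.2 and 43.4 CPM in TCR alone and at 47.0, 58.4 and 47.6 CPM in TCR+DMGV. The log2 differences were -0.01 ± 0.09 for Mtr and 0.08 ± 0.13 for Mtrr (SE), and the widest upper bound of the 7 genes, 1.31-fold, was that of Mtrr. Mtap (chr4:89137122-89181081, plus strand), which opens the salvage of methylthioadenosine, was at 188, 180 and 163 CPM in TCR alone and at 168, 176 and 174 CPM in TCR+DMGV, a log2 difference of -0.03 ± 0.08 (SE). For all 7 genes the log2 difference stayed between -0.08 and 0.06 without the 2 libraries that stood apart.

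**Figure D4:**
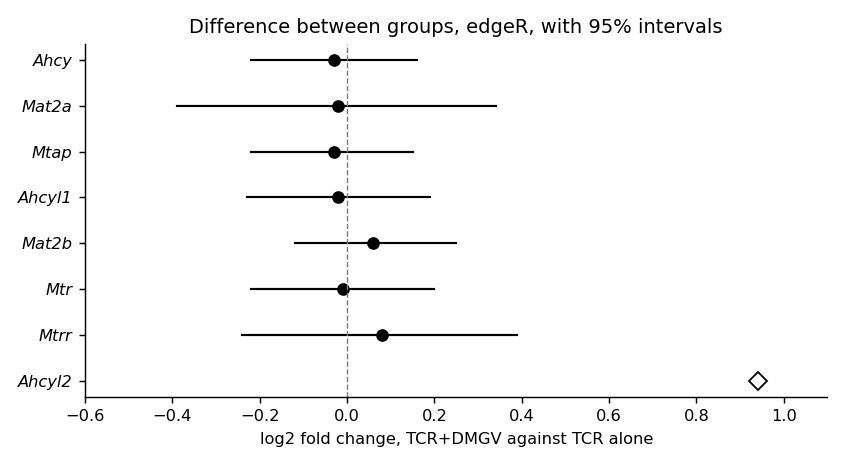
Log2 fold change of each gene in TCR+DMGV against TCR alone; filled points with bars are edgeR estimates with 95% intervals for the 7 tested genes, and the open diamond is the estimate for Ahcyl2, given without interval because the gene was chosen by this contrast. The 7 intervals all span 0, and Ahcyl2 sits at 0.94.

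Transcript usage was then examined in the other 7 genes, to see whether a steady total hid a switch between forms. Of their 43 annotated transcripts, 14 held at least 10% of the gene's counts in any sample and 32 were tested. No Mtap transcript was among those tested, so for Mtap only the shares are given. By edgeR's test of a changed share, 0 of 32 had an adjusted p under 0.05 and 0 an unadjusted one. Of the 31395 transcripts tested in all genes, 0.436% were called. On simulated counts with the spread of the data, the gene-level form of this test, which joins the p-values of a gene's transcripts, recovered 37% of 200 genes with a switch. The transcript-level form used here was not scored in that simulation, so it cannot exclude a switch. By limma's test on the same transcripts 0 passed the adjusted threshold, beside 124 of 31395 in all genes, and 4 had an unadjusted p under 0.05. The share of all transcripts under an unadjusted 0.05 by limma is not given here, so nothing is read from these 4. Ahcy, Mtr and Mtap each used 1 form almost alone: Ahcy-201 held 99.7% to 100.0% of counts, Mtap-201 99.7% to 100.0% and Mtr-201 94.8% to 98.8%.

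Mat2a is of interest because its last intron is a known point of control, kept or removed according to the supply of S-adenosylmethionine through Mettl16. Mat2a-202, the annotated form that keeps this 585-base intron whole (chr6:72434396-72434980), held 13.0%, 2.97% and 6.64% of counts in TCR alone, against 4.61%, 8.42% and 8.84% in TCR+DMGV. The groups overlapped fully, at 7.55% ± 5.09 and 7.29% ± 2.33 (SD, n = 3 each; edgeR adjusted p = 1.0). Mat2a-201, the main coding form, held 81.7% to 92.5% of counts over the 6 samples.

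Mat2b has alternative first exons that give its protein different N-terminal ends. The coding parts of both first exons are printed 5′ to 3′ on the minus strand with the start codon in capitals, because they set that end of each form. They lie at chr11:40694803-40694832 for Mat2b-202 and at chr11:40692478-40692540 for Mat2b-201.
Mat2b-202: ATGcctgaaatgccggaggccatggaacag
Mat2b-201: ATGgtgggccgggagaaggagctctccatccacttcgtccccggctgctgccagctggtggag
Mat2b-201 held 60.3%, 43.0% and 58.1% of counts in TCR alone, against 44.1%, 53.2% and 45.6% in TCR+DMGV. Mat2b-202 held 11.5%, 50.4% and 34.2% in TCR alone and 46.5%, 37.9% and 40.9% in TCR+DMGV. The shares overlapped between groups, and TCR alone replicate 1 stood out with a low Mat2b-202. That library also had 16.0% of its Mat2b counts in Mat2b-205, a retained-intron form that held 0.992% to 3.29% in the other 5. Mat2b-206, annotated for nonsense-mediated decay, held 4.44% to 10.4%.

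Mtrr and Ahcyl1 showed the largest SDs of transcript share among these 7 genes. Mtrr-201 held 36.9%, 96.1% and 75.1% of counts in TCR alone, against 65.5%, 29.5% and 21.6% in TCR+DMGV. Mtrr-209, a coding form of equal coding length whose first exon runs on for 809 bases, held 59.2%, 1.46% and 2.51% in TCR alone and 12.7%, 60.8% and 75.0% in TCR+DMGV. The means of Mtrr-209 differed by 28.5 percentage points, but TCR alone replicate 1 and TCR+DMGV replicate 1 each sat with the other group, and the difference did not pass (edgeR adjusted p = 1.0). Mtrr-208, annotated for nonsense-mediated decay, held 18.1% in both libraries that stood apart and 0 to 7.11% in the other 4.

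Ahcyl1-201 held 88.1% to 94.7% of Ahcyl1 counts in 5 libraries and 53.6% in TCR alone replicate 3. In that library 35.5% fell to Ahcyl1-203, a nonsense-mediated decay form that starts further downstream, skips a 107-base exon (chr3:107671138-107671244) and held 0.106% to 6.06% in the other 5. The difference of the means of Ahcyl1-203 was -8.32 percentage points with all samples and 2.23 without the 2 libraries that stood apart, so its direction rests on TCR alone replicate 3.

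**Figure D5:**
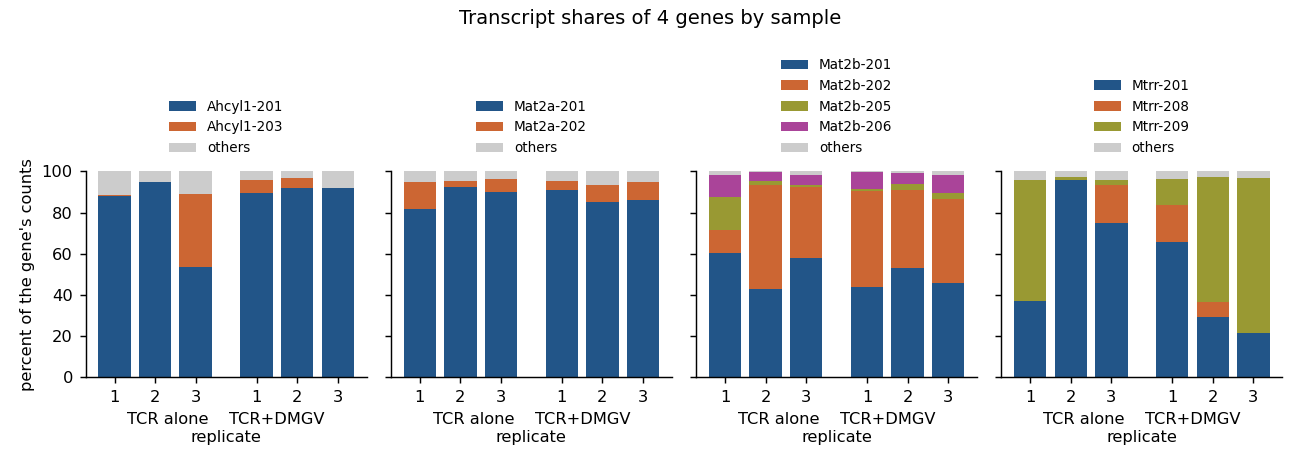
Percent of each gene's counts held by its named transcripts in Ahcyl1, Mat2a, Mat2b and Mtrr; each bar is 1 sample, grey is the sum of all other transcripts. Replicates of 1 group differ widely, most of all in Mtrr, where Mtrr-201 runs from 21.6% to 96.1%.

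The wider pathway was covered by 9 lists of 76 genes, of which 65 passed the filter on low counts. None of the 65 passed the adjusted threshold in either direction by edgeR, and 2 had an unadjusted p under 0.05 (DESeq2 gave 0 and 0), beside 3.19% of all genes under an unadjusted 0.05. Their median log2 difference was 0.006, beside 0.002 over all 14786 genes, with 33 genes higher and 32 lower. The differences ran from -0.57 to 0.51.

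Of the genes for homocysteine remethylation and cobalamin supply, 0 of 7 passed. Abcd4, which carries cobalamin out of the lysosome, was at 6.96 ± 1.01 CPM in TCR alone, against 9.24 ± 1.14 CPM in TCR+DMGV (SD, n = 3 each), a log2 difference of 0.41 (edgeR adjusted p = 0.999) that was 0.18 with limma on log2(FPKM + 1). Tcn2, the cobalamin carrier of plasma, was at 2.53 and 2.16 CPM. Both genes of transsulfuration, the path from homocysteine to cysteine, had lower means without passing: Cth was at 5.24 ± 0.408 and 3.54 ± 1.48 CPM (SD, n = 3 each; log2 difference -0.57, edgeR adjusted p = 0.999), and Cbs at 2.03 and 1.69 CPM. The Cth groups overlapped, and its difference was -0.35 without TCR+DMGV replicate 2 and -0.95 without TCR+DMGV replicate 3.

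S-adenosylmethionine sensing and transport gave 0 of 3. Mettl16, the methyltransferase that acts on Mat2a RNA, was at 134, 161 and 103 CPM in TCR alone and at 61.3, 138 and 141 CPM in TCR+DMGV. The means were 133 ± 29.0 and 113 ± 45.0 CPM (SD, n = 3 each), a log2 difference of -0.23. It was 0.07 without TCR+DMGV replicate 1 and -0.08 without both libraries that stood apart, so the lower mean rests on that replicate. Slc25a26, which brings S-adenosylmethionine into mitochondria, was at 8.81 and 7.93 CPM in TCR alone and TCR+DMGV. Mat1a, the liver form of the synthetase, and Gnmt, the liver methyltransferase that uses up excess S-adenosylmethionine, were too low to test. The salvage enzymes downstream of Mtap gave 0 of 4, with Enoph1 at 42.5 and 47.5 CPM and Adi1 at 52.6 and 49.9 CPM. The polyamine steps that make methylthioadenosine gave 0 of 4, with Amd2 at 22.0 and 19.2 CPM and Sms, spermine synthase, at 191 and 180 CPM. Of the enzymes that remove adenosine, Adk was at 137 and 139 CPM and Ada at 19.6 and 19.0 CPM, and Pnp was not analysed here.

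Among 29 methyltransferases tested, which spend S-adenosylmethionine, 0 passed, 19 had a higher mean and 10 a lower one. Ezh2, the histone H3 methyltransferase of the Polycomb complex, was at 245 ± 4.04 CPM in TCR alone, against 218 ± 8.96 CPM in TCR+DMGV (SD, n = 3 each), a log2 difference of -0.17 that did not pass (edgeR adjusted p = 0.999). Dnmt1, which copies DNA methylation after replication, was at 786 ± 35.6 and 727 ± 15.4 CPM. Ezh2 and Dnmt1 were the 2 methyltransferases whose TCR+DMGV libraries all lay below the TCR alone libraries, and 4 methyltransferases had the reverse order. That makes 6 of 29 without overlap, beside 8.86% of all tested genes, and none passed the test. Over all 65 tested genes of the wider lists, these 4 higher and 2 lower genes were the only ones without overlap.

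Methionine uptake gave 0 of 8, with Slc7a5, the light chain of the main transporter of large neutral amino acids in activated T cells, at 421 and 388 CPM and Slc38a2 at 185 and 172 CPM in TCR alone and TCR+DMGV. Proteins that bind the Ahcyl family gave 0 of 6. Itpr3, an inositol trisphosphate receptor, was at 89.5 and 84.2 CPM, and Rrm1, the large subunit of ribonucleotide reductase, at 666 and 600.0 CPM. The epithelial partners Slc4a4, Slc9a3 and Cftr were too low to test in these T cells.

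Across the 6 libraries, the genes whose log2 CPM followed Ahcyl2 most closely among 11247 genes were Trp53i11, Gm45133, Pfkfb3, Gatc and Tnfrsf21, with Pearson's r of 0.992, 0.986, 0.985, 0.981 and 0.980. The samples share their grouping, so any gene with separate groups scores high by this measure, and r is given as a description. Pfkfb3, an enzyme that sets the level of a glycolytic activator, was at 46.8, 51.0 and 49.5 CPM in TCR alone and at 83.5, 92.9 and 84.5 CPM in TCR+DMGV. Trp53i11 was at 11.5, 11.6 and 13.0 CPM in TCR alone and at 20.6, 18.7 and 19.5 CPM in TCR+DMGV. Of the methionine cycle genes, Mat2b had the highest r to Ahcyl2 at 0.538, and the other 6 lay between -0.321 and 0.216.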

How the data were processed

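RNA of 6 samples of activated T cells was sequenced from libraries made with an mRNA kit. The authors deposited whole-number counts and FPKM values per gene and per transcript. Reads were mapped with HISAT2 2.0.4 per the labels, and the study's methods add SOAPnuke for filtering and StringTie for expression. The labels name mm9, but 99.7% of the deposited gene identifiers, and all 8 genes and 66 transcripts described, are in GENCODE M21, so coordinates and sequences are from that GRCm38 annotation. The counts deposited by the authors for transcripts rest on an estimated division of shared reads. The FPKM values deposited per gene were used for levels between genes.

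Gene counts were tested in R 4.3.3 by the quasi-likelihood test of edgeR 4.0.16 (TMM scaling, default filter, two-sided, Benjamini-Hochberg adjustment over 14786 genes, threshold 0.05). Transcript usage was tested with edgeR's diffSpliceDGE over 31395 transcripts. No model term was used beside the group. Intervals are 95% intervals of the fit, and log2 CPM used a prior count of 2. On simulated counts where 200 of 14468 genes differed by a log2 value of 1, the gene test recovered 42% of these 200, and 8.7% of its calls were false. On simulated transcript counts with the spread of the data, the usage test was scored per gene, by its joined p-value. It recovered 37% of 200 genes with a switch among 28229 transcripts, and 41.7% of the genes it called were false. The transcript-level p-values reported here were not scored. The test is weak at the gene level, and the usage results rest on the shares in each sample.

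The members and lists were chosen with earlier results of these data known. Named were all 8 genes, every transcript with at least 10% of its gene's counts in any sample, the 2 genes of smallest p in each wider list where none passed, and the 5 genes most like Ahcyl2 with a log2 CPM above 1. Transcript starts within 100 bases were taken as 1 site. The alternatives were DESeq2 1.42.0, limma 3.58.1 on log2(FPKM + 1) and log2(FPKM + 0.1), other scaling and filters, summed transcript counts, shares from transcript FPKM, the replicate number as a block, and samples left out. Replicates of a group differed by far more than counting error (chi-square per degree of freedom 22.8 to 100.0). The study gives 3 independent biological samples per group. The 37 genes of the mitochondrial genome had 0 counts. Tables and figures were made with Python 3.11.15, pandas 2.3.3 and matplotlib 3.10.9.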

Additional observations from a re-analysis of the deposited data

How the results depend on the processing

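The Ahcyl2 log2 difference stayed between 0.89 and 0.98 with each sample left out and between 0.69 and 0.94 over 8 other settings with all samples, the lowest with limma on log2(FPKM + 1), a scale that shrinks low genes and took Abcd4 from 0.41 to 0.18. For the other 7 genes the log2 difference lay between -0.05 and 0.08 over those settings and between -0.15 and 0.18 with 1 sample left out. No gene of the 7, no gene of the wider lists and no transcript of the 7 passed the adjusted threshold in any setting run (0 in each). The ratio of Ahcyl2 to Ahcyl1 depended on the length used: 9.94% in TCR alone and 19.2% in TCR+DMGV became 30.1% and 43.9% with summed transcript FPKM, a setting chosen after seeing the data. With shares from transcript FPKM the difference of Ahcyl2-202 was -6.47 percentage points in place of -15.5. The order of the lowest genes also changed with summed transcript FPKM, which put Ahcyl2 above Mtrr and Mtr in TCR+DMGV. Over all genes, the count past the threshold was 2 in the main test, 14 with DESeq2, 1 with library size alone or no filter, 0 with limma, 0 to 5 with 1 sample left out and 12 without TCR alone replicate 3 and TCR+DMGV replicate 1. Over all transcripts, 137 became 278 with a limit of 10 counts, 183 to 213 with 1 sample left out and 264 without those 2 samples.

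The sources do not say whether same-numbered samples of the 2 groups are paired. Their deviations from the group means correlated at -0.15, 0.12 and -0.15, which cannot settle this with 3 samples per group. With the replicate number as a block, 0 of the 7 genes, 0 of the 65 wider genes and 0 of the 32 transcripts passed, the Ahcyl2 log2 difference was 0.94, and over all features 0 genes and 49 transcripts passed. The precision is limited by 3 samples per group, where the smallest p of an exact permutation test is 0.1, and for transcripts by the division of shared reads.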
